A study of Mus musculus with 12 samples.

Results

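The genes described here mark the enteric nervous system of the mouse colon. They are 3 genes of neurons (Elavl4, Ret and Uchl1), 2 genes of neuropeptides (Vip and Tac1) and 3 genes of glia (Gfap, S100b and Sox10). They were taken by symbol from the array's gene table, among probe sets assigned to exactly 1 gene, and all 8 were found among the 19938 genes measured, each with 1 probe set. RNA came from the colon of 12 male wild-type C57BL/6 mice, which were 7 weeks old at the start, with 1 Affymetrix mouse Gene ST array per mouse and 3 mice per group. Control mice drank water throughout. Control+L-Arg mice drank water for 6 days and then 1% L-arginine (L-Arg) for 4 days. DSS mice drank 4% dextran sulfate sodium (DSS), a polysaccharide that injures the colonic epithelium, for 6 days and then water for 4 days. DSS+L-Arg mice drank DSS for 6 days and then L-Arg for 4 days. All were sacrificed on day 10, so the samples come from the phase after DSS was withdrawn. Per the study's methods, a small piece of proximal and a small piece of distal colon were combined for RNA, and such a piece may hold more or less of the muscle wall in which most enteric neurons lie.

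The enteric nervous system is a network of neurons and glia in the gut wall, with a myenteric plexus between the muscle layers and a submucosal plexus beneath the mucosa. Its precursors migrate along the gut under the control of the RET receptor, its GDNF-family ligands and endothelin signaling. Excitatory motor neurons use acetylcholine and tachykinins, inhibitory motor neurons use nitric oxide and vasoactive intestinal peptide, and the glia wrap the neurons and extend into the mucosa. In RNA from whole tissue, fewer cells of a type and less RNA per cell cannot be told apart, so each value below is a level per tissue.

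Vip and Tac1 encode the 2 peptides of the set, and their values spread most widely over the 12 mice, so the 250 bases before their transcription starts are shown. The sequences are from RefSeq on build GRCm38.p6, which differs from the build mm9 named for the arrays. Vip lies on the plus strand at chr10:5638968-5639217 and Tac1 on the plus strand at chr6:7554811-7555060. Capitals mark TGACG on either strand, the core of the cyclic AMP response element, and CACGTG, an E-box.
Vip: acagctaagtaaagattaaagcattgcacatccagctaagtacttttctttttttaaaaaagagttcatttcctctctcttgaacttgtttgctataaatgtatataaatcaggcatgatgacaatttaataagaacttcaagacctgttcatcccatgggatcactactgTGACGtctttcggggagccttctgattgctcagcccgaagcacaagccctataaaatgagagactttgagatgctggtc
Tac1: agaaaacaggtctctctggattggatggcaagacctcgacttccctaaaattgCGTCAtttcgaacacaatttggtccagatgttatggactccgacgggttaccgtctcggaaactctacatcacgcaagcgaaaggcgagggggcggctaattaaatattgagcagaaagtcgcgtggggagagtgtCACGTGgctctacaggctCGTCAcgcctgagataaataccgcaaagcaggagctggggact
In Vip, TGACG began 79 bases before the start. In Tac1 it began 197 and 43 bases before the start, on the minus strand, and CACGTG began 61 bases before it. The 2 motifs do not overlap in either window. TGACG was present in 17.8% and CACGTG in 6.02% of all 32851 windows of this length in the table, so neither motif is rare. Windows were given for 6 of the 8 genes. A match is a description of the letters and no measurement of binding.

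Most of the 8 genes were measured above the level of genes that the colon should lack. Values are log2 signals after robust multi-array averaging (RMA), and the 95th percentile of 1194 odorant and vomeronasal receptor genes lay between 5.78 and 6.15 over the arrays. Ret, Uchl1, Vip, Tac1, Gfap and Sox10 were above it on 12 of 12 arrays. S100b was above it on 11 and Elavl4 on 6, and the 6 arrays on which Elavl4 was not above it were 1 of control, 2 of DSS and 3 of DSS+L-Arg. A value of Elavl4 in the DSS groups is thus mostly an upper bound. Levels of different genes are not compared, because probe sets differ in brightness. Among the libraries, control 2 stood apart by genes of male accessory glands, whose median was 3.22 on the log2 scale above the control mean, against -1.91 to -0.96 on the 11 other arrays. Genes of the posterior Hox clusters, which differ along the length of the colon, also differed between mice, with list medians of -1.18 to 0.86 relative to control. Smooth muscle genes had medians of -0.44 to 0.74 in control, -0.71 to 1.09 in control+L-Arg, -1.32 to -0.67 in DSS and -1.12 to -0.27 in DSS+L-Arg. Mice with and without DSS thus overlapped in this level. Their part in the results was not tested. Fits with a covariate for smooth muscle or posterior Hox genes are given below, and none was run for male accessory gland genes. The smooth muscle level was itself lower on average in DSS. Its covariate therefore takes up part of any DSS difference and cannot test the part of smooth muscle.

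None of the 8 genes passed an adjusted p under 0.05 in any comparison by limma, and none by an unequal-variance test of the pairs of groups. Over all genes, the shares that passed by limma were 4.03% for DSS versus control, 0.637% for DSS+L-Arg versus DSS, 0% for control+L-Arg versus control, 0.0652% for DSS+L-Arg versus control, 0.306% for DSS+L-Arg against control+L-Arg and 3.68% for DSS versus control+L-Arg. The test of any difference among the 4 groups passed for 2.96% of all genes, and the test of a difference between the L-Arg effects with and without DSS passed for 0.0752%. With shares this small, a count of 0 of 8 lies near the background and sets these genes apart from nothing. At an unadjusted p under 0.05, 1 of 8 passed for DSS versus control, where 19.6% of all genes did. For DSS+L-Arg versus DSS it was 0 against 13.5% of all genes, for control+L-Arg versus control 0 against 3.44%, and for DSS+L-Arg versus control 1 against 12.6%. For DSS+L-Arg against control+L-Arg 3 of 8 passed, where 15.6% of all genes did, and for DSS versus control+L-Arg 3 of 8, where 20.4% did. The difference of the L-Arg effects gave 1 against 10.8%, and the test of any difference among the groups 2 against 19.8%.

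**Figure D1:**
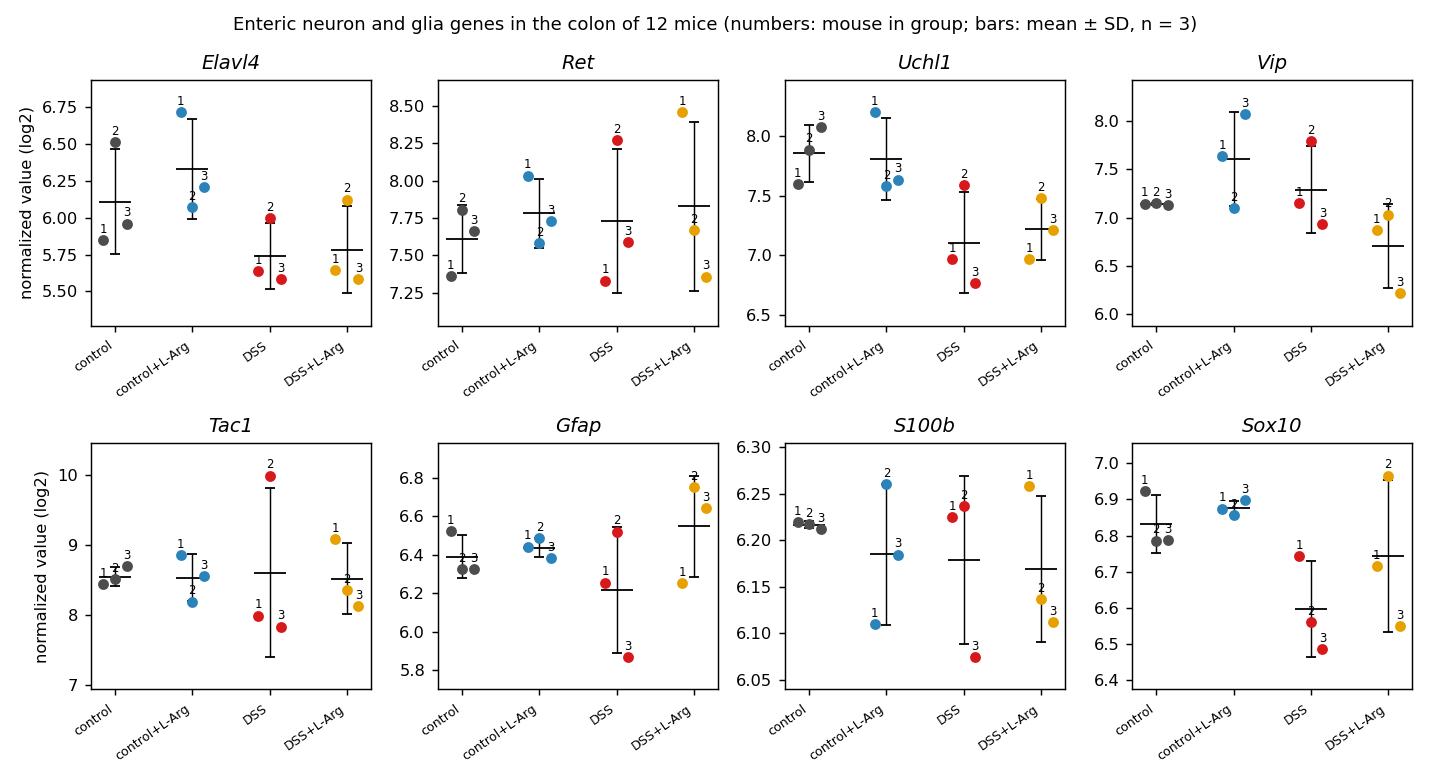
Normalized log2 values (vertical axis, a separate scale for each gene) of the 8 genes on the 12 arrays, by group. Points are mice with their number in the group, and bars are the mean and SD of 3 mice. The plot shows the lower Uchl1 of DSS and DSS+L-Arg mice, the single high Tac1 value of 9.99 in DSS mouse 2, and the narrow axis of S100b, which runs from 6.07 to 6.26.

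Of the neuronal genes, Uchl1 had the lowest adjusted p with DSS. Uchl1 encodes PGP9.5, a ubiquitin hydrolase abundant in nearly all neurons and a standard stain for enteric ganglia. Its log2 values were 7.60, 7.89 and 8.08 in control mice 1 to 3 and 8.20, 7.58 and 7.64 in control+L-Arg mice. They were 6.97, 7.59 and 6.77 in DSS mice and 6.97, 7.48 and 7.21 in DSS+L-Arg mice. Both DSS groups thus lay below every mouse of the control group, although DSS mouse 2 missed the lowest control by little. That mouse (7.589) lay above control+L-Arg mouse 2 (7.584), so DSS and control+L-Arg overlapped. Their difference was -0.70 (SE 0.23, adjusted p = 0.117 by limma). The difference of DSS from control was -0.75 on the log2 scale (SE 0.23, 95% CI -1.26 to -0.24), or 1.68-fold lower, with an adjusted p of 0.0973 by limma. In DSS+L-Arg the difference from control was -0.64 (SE 0.23, adjusted p = 0.305). Without DSS mouse 2, the difference of DSS from control was -0.99 and passed the threshold (adjusted p = 0.0378), and over the 23 alternatives tried the adjusted p ran from 0.0378 to 0.515. With the smooth muscle level as a covariate it was -0.55 (adjusted p = 0.391), and with the posterior Hox level -0.76 (adjusted p = 0.102 by limma).

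Elavl4 encodes HuD, an RNA-binding protein of neurons that marks their cell bodies. It read 5.85, 6.51 and 5.96 in control, 6.71, 6.07 and 6.21 in control+L-Arg, 5.64, 6.00 and 5.58 in DSS and 5.64, 6.12 and 5.58 in DSS+L-Arg. The 2 groups without DSS held the highest values, but mouse 2 of each DSS group lay within the control range. DSS differed from control by -0.37 (SE 0.22, adjusted p = 0.402) and from control+L-Arg by -0.59 (SE 0.22, adjusted p = 0.156), and in the latter pair the values did not overlap. On 2 of the 3 DSS arrays Elavl4 was not above the receptor-gene level, so these differences are measured against a group mostly at its floor. The groups without DSS were also near it. Control mouse 1 was not above that level (5.848 against 5.963). Control+L-Arg mice 2 (6.071 against 6.055) and 3 (6.209 against 6.147) exceeded it by little. The size of the gap is therefore uncertain. The DSS+L-Arg values, at or below that level on all 3 arrays, bound the level from above. Without control mouse 2 the difference from control was -0.16.

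Ret encodes the receptor tyrosine kinase through which GDNF-family ligands act on enteric neurons and their precursors. Its values were 7.36, 7.81 and 7.66 in control, 8.03, 7.58 and 7.73 in control+L-Arg, 7.33, 8.27 and 7.59 in DSS and 8.46, 7.67 and 7.36 in DSS+L-Arg. The 4 groups overlapped throughout, and the high values belonged to DSS mouse 2 and DSS+L-Arg mouse 1. The DSS group differed from control by 0.12 (SE 0.29, 95% CI -0.51 to 0.75, adjusted p = 0.877). Leaving out DSS mouse 2 turned this difference to -0.15.

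Of the neuropeptide genes, Vip showed its widest gap between the 2 groups given L-Arg. Vip encodes vasoactive intestinal peptide, a relaxant of gut muscle and a secretagogue. Its values were 7.14, 7.15 and 7.13 in control, 7.64, 7.10 and 8.08 in control+L-Arg, 7.15, 7.80 and 6.93 in DSS and 6.87, 7.03 and 6.21 in DSS+L-Arg. All 3 DSS+L-Arg mice lay below all control and all control+L-Arg mice, while the DSS group straddled the control values. DSS+L-Arg differed from control+L-Arg by -0.90 (SE 0.28, 95% CI -1.52 to -0.29), or 1.87-fold, with an adjusted p of 0.177 by limma. It differed from DSS by -0.59 (SE 0.28, adjusted p = 0.389). The effect of L-Arg in DSS mice minus that in control mice was -1.05 (SE 0.40, adjusted p = 0.373 by limma). With array weights the first of these differences was -1.14 and passed the threshold (adjusted p = 0.0467), and its adjusted p ran up to 0.885 over the other alternatives. That highest value came from the fit with the smooth muscle level as a covariate, where the difference was -0.52. With the posterior Hox level as a covariate it was -0.80 (adjusted p = 0.261 by limma). The difference was -0.67 without control+L-Arg mouse 3 and -0.66 without DSS+L-Arg mouse 3. The Vip value of DSS+L-Arg mouse 3, 6.21, was close to the receptor-gene level of its array, 5.953.

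Tac1 encodes the precursor of substance P and neurokinin A, which contract gut muscle and take part in neurogenic inflammation. It read 8.44, 8.51 and 8.70 in control, 8.85, 8.19 and 8.56 in control+L-Arg, 7.99, 9.99 and 7.84 in DSS and 9.09, 8.35 and 8.13 in DSS+L-Arg. The 3 DSS mice held both the highest value of the 12 and the lowest, and the control mice were the most alike. The group means were close as a result, at 8.55 ± 0.13 in control and 8.61 ± 1.20 in DSS (SD, n = 3). Their difference of 0.06 had a 95% CI of -0.97 to 1.08 (SE 0.47, adjusted p = 0.967), an interval that includes changes of nearly 2-fold in either direction. Without DSS mouse 2 the difference was -0.63 (adjusted p = 0.254). Over the 12 arrays Tac1 spanned 4.44-fold and Vip 3.65-fold, against 2.70-fold for Uchl1.

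The glial genes varied less. Sox10 encodes a transcription factor of glia and of their neural crest precursors. It read 6.92, 6.79 and 6.79 in control, 6.87, 6.86 and 6.90 in control+L-Arg, 6.74, 6.56 and 6.49 in DSS and 6.72, 6.97 and 6.55 in DSS+L-Arg. The DSS mice lay below all 6 mice without DSS, and the DSS+L-Arg mice spread over the range of the others. DSS differed from control by -0.24 (SE 0.11, 95% CI -0.48 to 0.01, adjusted p = 0.274) and from control+L-Arg by -0.28 (SE 0.11, adjusted p = 0.181).

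Gfap encodes the intermediate filament of glia that is known to rise in reactive glia. Its values were 6.52, 6.32 and 6.33 in control, 6.44, 6.49 and 6.38 in control+L-Arg, 6.25, 6.52 and 5.87 in DSS and 6.25, 6.75 and 6.64 in DSS+L-Arg. The 2 groups without DSS were tight, and the 2 groups with DSS were wider and overlapped them. DSS differed from control by -0.18 (SE 0.16, adjusted p = 0.628), and DSS+L-Arg differed from DSS by 0.33 (SE 0.16, 95% CI -0.03 to 0.69, adjusted p = 0.405). Without DSS mouse 3 the difference between DSS+L-Arg and DSS was 0.16. The Gfap value of that mouse, 5.869, was close to the receptor-gene level of its array, 5.803.

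S100b, which encodes a calcium-binding protein used to stain enteric glia, ranged only from 6.07 to 6.26 over the 12 arrays. Its group means were 6.22 in control, 6.18 in control+L-Arg, 6.18 in DSS and 6.17 in DSS+L-Arg. The interval for DSS versus control was -0.22 to 0.14 (adjusted p = 0.864), the narrowest of the 8 genes. S100b lay close to the receptor-gene level throughout, and the narrow interval describes the signal of this probe set.

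**Figure D2:**
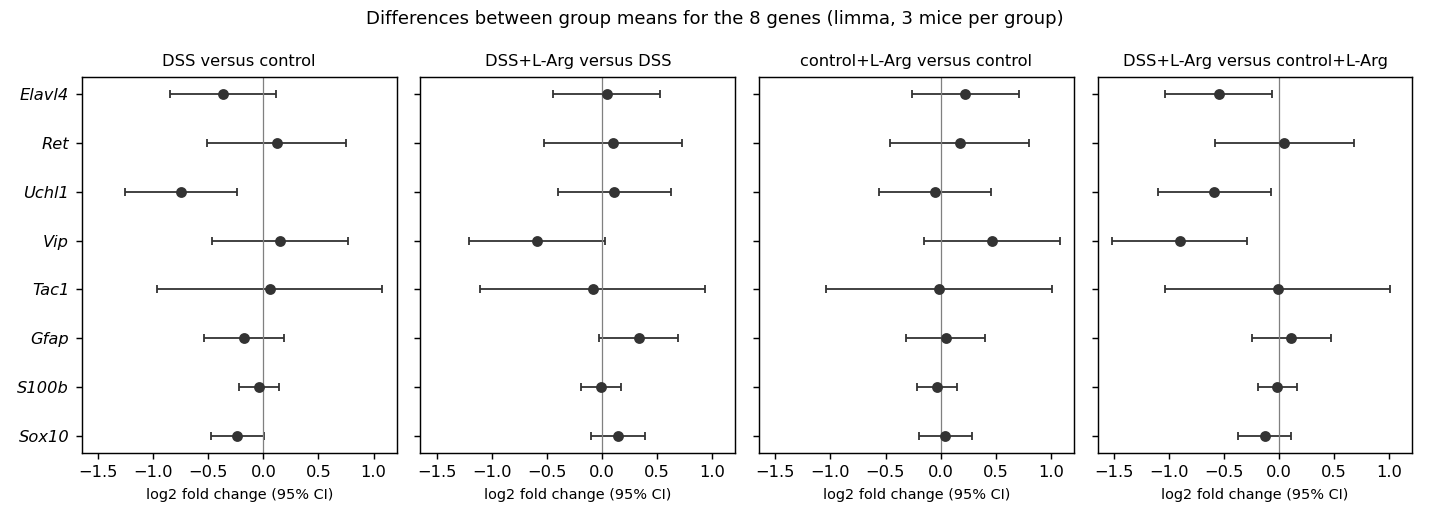
Log2 fold change (horizontal axis) of the 8 genes in 4 comparisons, as points with 95% confidence intervals from limma over 12 arrays. The intervals of Uchl1 in DSS versus control and of Vip in DSS+L-Arg against control+L-Arg lie furthest from 0, the interval of Tac1 is the widest and that of S100b the narrowest, and no adjusted p is under 0.05. Elavl4 was not above the receptor-gene level in the DSS+L-Arg group.

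In the order of group means, no neighboring groups differed at an adjusted p under 0.05 for any of the 8 genes. Neighbors without overlap were DSS+L-Arg and control+L-Arg for Uchl1, which differed by -0.59 (SE 0.23, adjusted p = 0.263), and DSS+L-Arg and control for Vip, which differed by -0.44 (SE 0.28, adjusted p = 0.545). The neighbors of the other 6 genes overlapped. The lowest mean was in DSS for Elavl4, Uchl1, Gfap and Sox10, in DSS+L-Arg for Vip, Tac1 and S100b and in control for Ret. In DSS versus control, 5 of the 8 differences were negative, against 10584 of 19938 over all genes. The median of the 8 was -0.11, against -0.01 over all genes. For DSS+L-Arg versus DSS 3 of 8 were negative, against 7409 of 19938, with a median of 0.07, against 0.06 over all genes. For DSS versus control+L-Arg, 7 of 8 were negative, against 10559 of 19938. The median there was the furthest from 0 at -0.25, against -0.01 over all genes. The medians were 0.05 for control+L-Arg versus control, -0.07 both for DSS+L-Arg versus control and for DSS+L-Arg against control+L-Arg. The comparisons share groups, so these values are not independent of each other.

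Groups of 3 that do not overlap were common in these data, in 25.0% of all genes for DSS versus control, 16.6% for DSS+L-Arg versus DSS, 10.4% for control+L-Arg versus control, 23.2% for DSS+L-Arg versus control, 21.1% for DSS+L-Arg against control+L-Arg and 20.9% for DSS versus control+L-Arg. Among the 8 genes, 2 did not overlap for DSS versus control (Uchl1 and Sox10), 2 for DSS+L-Arg versus control (Uchl1 and Vip), 2 for DSS+L-Arg against control+L-Arg (Uchl1 and Vip) and 2 for DSS versus control+L-Arg (Elavl4 and Sox10), with the DSS group lower each time. None of the 8 was without overlap for DSS+L-Arg versus DSS or for control+L-Arg versus control. A share of 2 in 8 is near the background of the comparisons with DSS. At thresholds like those of the study, a p under 0.01 by limma and a fold change over 2, none of the 8 passed in any pair of groups. The shares of all genes that passed were 2.13% for DSS versus control, 0.953% for DSS+L-Arg versus DSS, 0.0150% for control+L-Arg versus control, 0.446% for DSS+L-Arg versus control, 0.727% for DSS+L-Arg against control+L-Arg and 2.16% for DSS versus control+L-Arg.

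Other genes of enteric neurons were examined through lists. Of 18 measured pan-neuronal genes, which encode neuronal cytoskeleton, vesicle and transcription proteins, 0 passed for DSS versus control by limma. Of their differences 17 were negative, against 10584 of 19938 over all genes, and the list median was -0.47. The furthest were Stmn2, a microtubule regulator, at -1.01 (SE 0.37, adjusted p = 0.151), Rtn1 at -0.88 (SE 0.30, adjusted p = 0.134) and the synaptic calcium sensor Syt1 at -0.87 (adjusted p = 0.21). Relative to the control mean, the list median was -0.37, -0.26 and -0.76 in DSS mice 1 to 3, -0.60, -0.10 and -0.45 in DSS+L-Arg mice and -0.21 to 0.25 in the 6 mice without DSS. DSS+L-Arg mouse 2 therefore lay within the range of the mice without DSS. For DSS+L-Arg versus DSS the list median was 0.02, with 0 called, and the values of Nefl (0.40), Gap43 (0.28) and Snap25 (-0.26) were the furthest from 0. Against control+L-Arg, 1 of the 18 was called lower in DSS, where 1.69% of all genes were. It was Nefl, a neurofilament subunit, at -0.95 (SE 0.23, adjusted p = 0.0453 by limma). This call was lost under 16 of the 23 alternatives, among them the leaving out of any of 10 single mice.

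Transmitter genes held the only calls among the related lists for DSS versus control. Of 20 genes of transmitters, their enzymes and transporters, 3 fell with DSS, where 2.23% of all genes were called lower, and the list median was -0.32. Grp, which encodes gastrin-releasing peptide, fell by 1.81 on the log2 scale (SE 0.39, adjusted p = 0.0273), from 8.59, 9.06 and 9.48 in control to 7.49, 7.65 and 6.56 in DSS. Ddc, which encodes the decarboxylase that makes dopamine and serotonin, fell by 1.17 (SE 0.21, adjusted p = 0.0129), and Calcb, which encodes a calcitonin gene-related peptide, fell by 0.83 (SE 0.19, adjusted p = 0.0343). Ddc is also known in colonic epithelium and enteroendocrine cells. Epithelial genes, with 0 of 9 called, had a median of 0.04 for DSS versus control, and enteroendocrine genes, with 0 of 10 called, had a median of -0.39. The part of either in the fall of Ddc was not tested. The count of 3 became 0 in a fit of only the groups compared, with the smooth muscle covariate, with the unequal-variance test and without control mouse 1 or control mouse 3. It was 1 without control mouse 2 or DSS mouse 3, and 5 with the posterior Hox covariate. Against control+L-Arg, 3 genes were lower in DSS: Grp (-1.59, adjusted p = 0.0477), the peptide gene Nmu (-1.35, adjusted p = 0.0488) and Ddc (-1.08, adjusted p = 0.0209), where 1.69% of all genes were called lower. This count ranged from 0 to 5 over 23 alternatives and was 0 under 6 of them, including the fits without control+L-Arg mouse 1 or 3. It was 1 without any single control mouse, control+L-Arg mouse 2, DSS mouse 2 or 3 or DSS+L-Arg mouse 3, and 5 without DSS mouse 1. In DSS+L-Arg versus DSS, 0 of the 20 were called, and Ddc differed by 0.55 (adjusted p = 0.293 by limma). Of the 20 differences 17 were positive, against 12529 of 19938 over all genes.

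The lists nearest to the glial genes had medians close to 0. Of 11 other genes of enteric glia, 0 were called for DSS versus control, the median was -0.08, and the furthest were the membrane protein gene Gpm6b at 0.61 (SE 0.26, adjusted p = 0.23) and the fatty acid binding protein gene Fabp7 at -0.60 (SE 0.18, adjusted p = 0.0855). Gpm6b read 7.77, 7.85 and 7.09 in DSS and 6.41, 7.00 and 6.60 in DSS+L-Arg, a difference of -0.90 (adjusted p = 0.183). The glia list was not filtered by the receptor-gene level. On every array, Sox2 (4.63 to 5.08) and Cdh19 (4.19 to 5.45) lay below the lowest such level, 5.78. A fall of such genes may not show, so a list median near 0 does not establish that glial genes were stable. Of 4 Schwann cell and myelin genes, 0 were called for DSS versus control. Mal stood at 1.16 (adjusted p = 0.103), Pmp22 at -0.50 (SE 0.13, adjusted p = 0.0578 by limma) and Egr2 at 0.26 (adjusted p = 0.203). The list median of 0.03 thus lies between differences of opposite sign. Mal was called higher in DSS than in control+L-Arg at 1.73 (adjusted p = 0.0283), where 1.99% of all genes were called higher, and Mal is also a gene of epithelial cells. The call was lost under 8 of 23 alternatives, among them the smooth muscle covariate and the fits without control+L-Arg mouse 1 or 3 or without DSS mouse 2 or 3.

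Partners of the members in signaling also held no call for DSS versus control. Of 13 genes of RET and endothelin signaling, 0 were called and the median was -0.02. Furthest from 0 was the endothelin receptor gene Ednrb at 1.12 (SE 0.32, adjusted p = 0.0782 by limma). Next were its ligand gene Edn3 at 1.02 (adjusted p = 0.2) and the transcription factor gene Zeb2 at 0.72 (SE 0.21, adjusted p = 0.0815). Ednrb read 6.65, 6.80 and 6.85 in control, 7.14, 6.53 and 7.99 in control+L-Arg, 7.72, 8.22 and 7.72 in DSS and 6.10, 7.00 and 6.74 in DSS+L-Arg. The DSS mice were thus above control and DSS+L-Arg mice, but within reach of control+L-Arg mouse 3. For DSS+L-Arg versus DSS, Ednrb stood at -1.27 (adjusted p = 0.123), Zeb2 at -0.91 (adjusted p = 0.0947) and Edn3 at -0.41 (adjusted p = 0.689 by limma). Edn3 read 8.14, 7.94 and 7.74 in control, 8.31, 8.30 and 10.28 in DSS and 8.44, 8.63 and 8.58 in DSS+L-Arg. Its DSS mean thus leaned on mouse 3, and the DSS+L-Arg mice stayed above the control mice. Macrophage genes moved over the same comparisons. In DSS versus control 7 of 8 were called higher, against 359 of 19938 over all genes. In DSS+L-Arg versus DSS 4 of 8 were called lower, against 104 of 19938 over all genes. The part of macrophages in the values of Ednrb, Edn3 and Zeb2 was not tested. Of 7 receptor and peptidase genes for the 2 peptides, 0 were called and the median was -0.23. Vipr2, a receptor for vasoactive intestinal peptide found on smooth muscle, stood at -1.05 (SE 0.39, adjusted p = 0.163), the tachykinin receptor gene Tacr2 at -0.52 (adjusted p = 0.513) and Vipr1, another receptor gene for the peptide, at 0.44 (adjusted p = 0.183). In control+L-Arg versus control, 0 genes of these 6 lists were called.

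**Figure D3:**
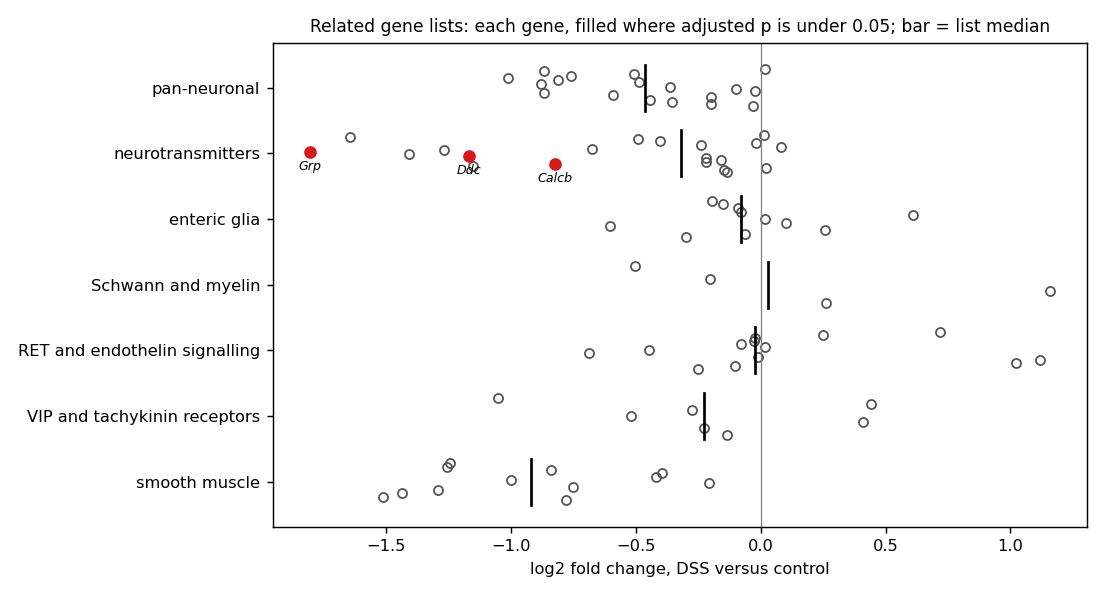
Log2 fold change for DSS versus control (horizontal axis) of each gene in 6 related lists and in the smooth muscle list. Filled points are genes with an adjusted p under 0.05, open points are not called, and vertical bars are list medians. Most pan-neuronal genes and all 12 smooth muscle genes lie left of 0, and Grp, Ddc and Calcb are the filled points.

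Smooth muscle genes had lower mean values alongside the neuronal genes. All 12 smooth muscle genes were lower on average in DSS than in control, with a median of -0.92 and 0 called. All 12 were also lower in DSS+L-Arg than in control, with a median of -0.86. Of all 19938 genes, 10584 were lower in the first comparison and 8724 in the second. Over the 12 arrays, Uchl1 followed the pan-neuronal median with a Pearson r of 0.94 and Elavl4 with an r of 0.88. Their r with the smooth muscle median were 0.72 and 0.57. Sox10 had an r of 0.67 with the pan-neuronal and 0.62 with the smooth muscle median, Vip of 0.48 and 0.61 and Gfap of 0.50 and 0.20. Ret (0.05 and -0.05), Tac1 (0.24 and 0.11) and S100b (0.11 and 0.02) had low r with both. Smooth muscle was not the only list that tracked these genes. Uchl1 had an r of 0.80 with the enteric glia and 0.79 with the enteroendocrine median, and Elavl4 of 0.74 and 0.66, each above its r with smooth muscle. Vip had an r of 0.71 with the enteric glia and 0.48 with the enteroendocrine median. Sox10 had an r of 0.78 with the transmitter median and -0.72 with the median of neutrophil genes, but only 0.24 with the enteric glia median. These correlations are descriptions over mice that share the groups, the normalization and differences in tissue make-up.

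The 8 genes did not vary as a unit. The closest pairs were Elavl4 with Uchl1 (r = 0.83) and Ret with Tac1 (r = 0.81), whereas Elavl4 with Ret had an r of 0.28 and Gfap with S100b 0.11. The Ret and Tac1 pair shared its high values in DSS mouse 2 and DSS+L-Arg mouse 1. The enteroendocrine list had medians of -0.33 in DSS mouse 2 and -0.20 in DSS+L-Arg mouse 1, but its genes went both ways there. Pyy, which encodes peptide YY of enteroendocrine cells, had its highest values of the 12 in these mice, at 11.2 and 11.1, whereas Chga, which encodes a granule protein of such cells, read 11.1 and 10.3 there, against 11.3 to 12.1 in control. The part of enteroendocrine cells in the Tac1 values was not tested.

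The genes most like each member over the 12 arrays were named by Pearson r. For Uchl1 they were Rtn1 (0.967), Gng3 (0.951) and Chrna3 (0.95), the last a nicotinic receptor subunit. For Elavl4 they were Fmn2 (0.953), Dbh (0.922) and Eno2 (0.904). For Vip they were Cacng7 (0.937), Cxcl14 (0.934) and Cpe (0.918), the last an enzyme that processes peptide precursors. For Tac1 they were Txndc11 (0.878), Oga (0.876) and Lrrcc1 (0.849), and for Ret they were Arfip1 (0.836), Sema3e (0.833) and Trav14-1 (0.824). Thus Uchl1 and Elavl4 had nearest neighbors that include known neuronal genes. For Gfap they were Chadl (0.926), Zfp113 (0.924) and Rbm3os (0.920), for Sox10 Kndc1 (0.934), Rps23rg1 (0.932) and Tvp23a (0.927), and for S100b Pelo (0.879), Gm6040 (0.859) and 1700122O11Rik (0.839). For the mean of the 8 centered genes they were Fam180a (0.926), Sgip1 (0.897) and Dbh (0.875). Each was picked as the highest of 19938 genes over 12 arrays, and these values say nothing of shared function.

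**Figure D4:**
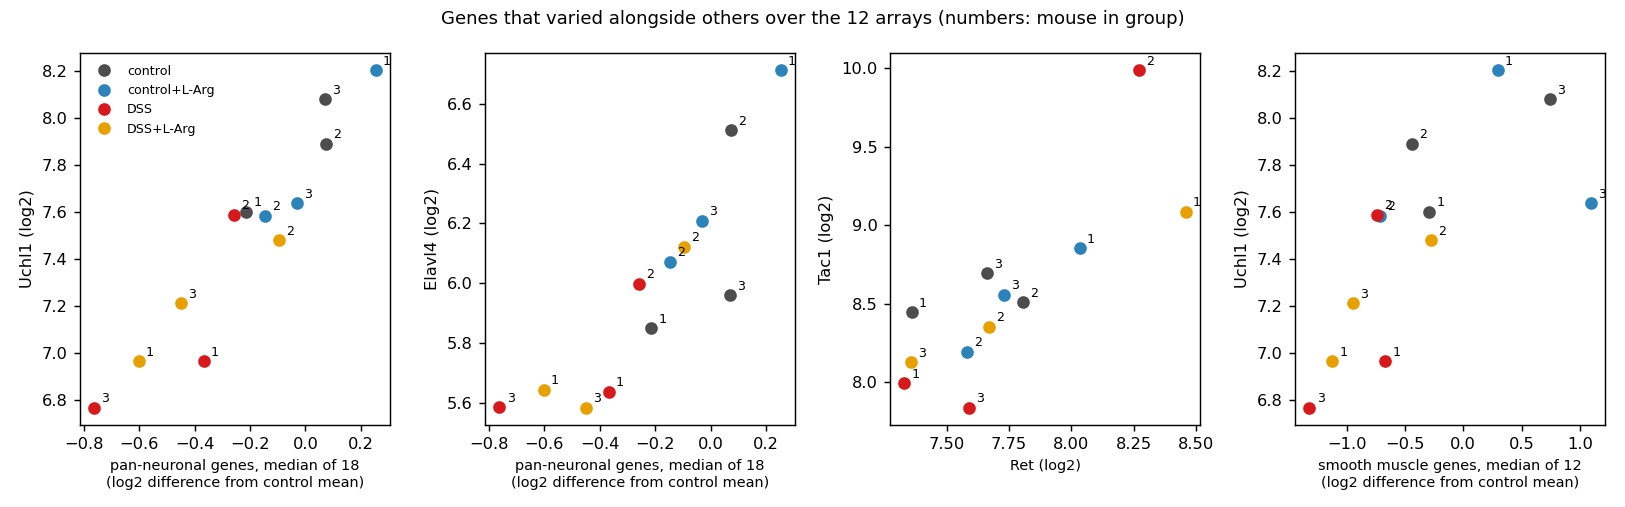
Uchl1 and Elavl4 (log2) against the median of 18 pan-neuronal genes, Tac1 against Ret, and Uchl1 against the median of 12 smooth muscle genes, with list medians as log2 differences from the control mean. Each point is a mouse, colored by group and labeled with its number. Uchl1 and Elavl4 rise along the pan-neuronal axis, DSS mouse 2 and DSS+L-Arg mouse 1 lie at the upper right for Ret and Tac1, and Uchl1 is more scattered over the smooth muscle axis.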

How the data were processed

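Colon RNA of 12 mice was profiled on Affymetrix mouse Gene ST arrays, 1 per mouse. The deposited values are log2 signals per probe set, which the authors background-corrected, quantile-normalized and summarized by RMA in Affymetrix Expression Console 1.1. Such normalization hides a change shared by most genes. The submitters' notes name build mm9. Depth is not a property of arrays, so precision is limited by the number of mice.

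Of 35556 probe sets, 21789 were assigned to a single gene, 1621 to several and 12146 were not listed. The brightest was kept per gene, which gave 19938 genes. One mean per group was fitted over all 12 arrays with limma 3.58.1 in R 4.3.3 (8 residual degrees of freedom, 3.37 prior degrees of freedom). Genes with an adjusted p under 0.05 (Benjamini-Hochberg, all genes) were called. Labels gave each mouse its group and number, and p-values measure the spread between these mice. Python 3.11.15, pandas 2.3.3 and matplotlib 3.10.9 made the tables and plots. The pipeline was tested on simulated data. No 2 arrays of a group held the same values, as any pair differed by over 0.01 in at least 95.11% of genes.

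The members and gene lists were chosen with earlier results of these data known. All 8 members are named with their values, and of each list up to 4 called genes with the largest difference, or up to 3 where none was called. The 3 genes with the highest Pearson r are named for each member. The study used Significance Analysis of Microarrays for p, and limma replaced it here. Results were recomputed with only the compared groups in the fit, with mouse number as a block, with arrays centered on their medians, with a second quantile normalization, with a filter on low values (over the 30th percentile in at least 3 arrays), with the mean of probe sets, with array weights, with a trended, robust prior, by an unequal-variance test, with covariates for smooth muscle and posterior Hox genes, and without each array in turn. The labels do not state a pairing by number. In control and control+L-Arg alone, all same-numbered mice deviated together (correlations of 0.21, 0.48 and 0.26), so a blocked fit of these 2 groups alone was added after seeing the data.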

Additional observations from a re-analysis of the deposited data

How the results depend on the processing

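Each result was recomputed under up to 24 alternatives, of which 12 left out 1 array each. Of 1280 differences recomputed for the 8 genes, 2 passed the threshold, Uchl1 in DSS versus control without DSS mouse 2 and Vip in DSS+L-Arg against control+L-Arg with array weights, and 86 had the opposite sign to the value reported, all of them uncalled. With array weights, 1 gene was called in DSS+L-Arg against control+L-Arg, and 1 gene, Vip, met the thresholds of the study there. Leaving out single arrays gave 0 to 1 called genes in DSS versus control. At the thresholds of the study it gave 0 to 1 genes in DSS+L-Arg against control+L-Arg. It moved the median of the 8 genes from -0.27 to 0.0059 (DSS versus control), from -0.046 to 0.26 (DSS+L-Arg versus DSS), from -0.47 to -0.091 (DSS versus control+L-Arg), from -0.28 to -0.011 (DSS+L-Arg against control+L-Arg) and from -0.094 to 0.14 (difference of the L-Arg effects). DSS mice 2 and 3 and DSS+L-Arg mice 1 and 3 gave the shifts larger than the spread between mice (SD 0.16). The cause was not tested.

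With the mouse number as a replicate block, 0 of the 8 genes were called in any comparison, and Uchl1 in DSS versus control had an adjusted p of 0.122. In the blocked fit of control and control+L-Arg alone, 0 were called, and the lowest adjusted p was 0.619, for Vip. Counts of called genes in the 6 related lists moved by over 1.5 times in 87 of 960 recomputed counts. Scaling shifted the median of all genes by at most 0.06. Elavl4 and S100b are limited by signals near those of receptor genes, as is Gfap in DSS mouse 3. Margins over that level were also small for Vip in DSS+L-Arg mouse 3 (6.21 against 5.953) and for Gfap in DSS mouse 1 (6.254 against 6.038). The same held for Gfap in DSS+L-Arg mouse 1 (6.25 against 6.02) and control+L-Arg mouse 3 (6.383 against 6.147).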
